A study of Mus musculus with 44 samples.

Results

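The 12 small RNA libraries described here come from the hypothalamus of lean C57Bl/6J mice kept on a regular chow diet (RCD), taken from a series of 44 libraries. They carry the batch labels 4 (8 libraries, RCD 1 to RCD 8) and 2 (4 libraries, RCD 9 to RCD 12), and every miRNA row and tRNA fragment (tRF) row of the deposited count tables was followed across this pair of batches. Both groups share the strain, the diet and the tissue, and the mice were age-matched to the obese mice of the study; their age is not given. The other 32 libraries come from mice fed a high-fat diet for 11 weeks and injected intravenously at 3.3 mg/kg on 3 days with a locked nucleic acid oligonucleotide, either AM132, complementary to miR-132, or AM608, complementary to the primate miR-608 and used as a control, with tissue taken 7 days after treatment. Of these, 16 libraries share batch 2 with the lean libraries, and 8 each belong to batch 1 and batch 3. All 8 libraries of batch 4 are lean. The labels do not say what a batch was a batch of, so mice, dissection, RNA extraction, library preparation and sequencing cannot be told apart. Nothing states that each library is a separate animal, and the p-values below measure the spread between these libraries, which may be partly technical.

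MicroRNAs (miRNAs) are short RNAs cut from hairpin precursors that guide Argonaute proteins to messenger RNAs, chiefly through the seed, the bases 2 to 8 of the mature strand. A hairpin can give a strand from each of its arms, named 5p and 3p. Fragments of transfer RNAs are cut from mature or precursor tRNAs, some by ribonucleases at the anticodon loop, and are named by the part of the tRNA they cover: fragments cut in the anticodon loop are the 5' and 3' ends of the cut tRNA, 5'-tRFs and 3'-tRFs keep one end of the tRNA, and internal fragments (i-tRFs) keep neither. The hypothalamus, at the base of the brain around the third ventricle, controls feeding, body temperature and pituitary hormones. Besides neurons and glia it borders ependyma and lies close to the pituitary gland, and miR-7 is among the miRNAs known to be rich in it.

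The sequences that carried the largest differences between the batches are shown first, because several of them share a seed or a locus. They are mature strands from RefSeq (build GRCm38.p6), 5′ to 3′, with the seed in capitals. These were lower in batch 4:
miR-7a-5p: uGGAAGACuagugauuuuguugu
miR-7b-5p: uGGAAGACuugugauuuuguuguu
miR-298-5p: gGCAGAGGagggcuguucuuccc
miR-758-3p: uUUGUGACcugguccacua
miR-135a-5p: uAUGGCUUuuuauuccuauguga
miR-216a-5p: uAAUCUCAgcuggcaacuguga
miR-216b-5p: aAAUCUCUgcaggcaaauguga
miR-217-5p: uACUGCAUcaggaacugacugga
miR-653-5p: gUGUUGAAacaaucucuacug
miR-7a-5p and miR-7b-5p share the seed GGAAGAC. miR-7a-5p is encoded within an Hnrnpk intron (chr13:58392841-58392863, minus strand) and outside annotated genes at chr7:78888295-78888317 (plus strand), and miR-7b-5p at chr17:56243017-56243040, plus strand, also outside genes. miR-216b-5p (chr11:28746204-28746225), miR-216a-5p (chr11:28757018-28757039) and miR-217-5p (chr11:28763761-28763783) lie on the same strand of chromosome 11, the last pair in an intron of the noncoding gene Gm12082. miR-653-5p (chr6:3721355-3721375, minus strand) lies in an intron of Calcr, the calcitonin receptor gene. miR-298-5p (chr2:174267553-174267575, minus strand) and miR-758-3p (chr12:109712858-109712876, plus strand) lie outside annotated genes, and miR-135a-5p lies in an intron of the noncoding gene Rmst (chr10:92072141-92072163, minus strand) and at chr9:106154140-106154162 (plus strand), which overlaps an intron of the antisense gene D030055H07Rik and an exon of Glyctk on the opposite strand.

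These were higher in batch 4:
miR-128-3p: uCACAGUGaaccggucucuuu
miR-9-5p: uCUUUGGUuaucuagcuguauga
miR-221-3p: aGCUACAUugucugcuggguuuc
miR-31-5p: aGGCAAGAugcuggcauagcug
miR-218-5p: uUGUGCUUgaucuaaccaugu
miR-1298-5p: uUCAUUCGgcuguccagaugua
miR-128-3p comes from introns of R3hdm1 (chr1:128202404-128202424, plus strand) and Arpp21 (chr9:112118644-112118664, minus strand). miR-221-3p lies outside annotated genes (chrX:19146307-19146329, minus strand), miR-31-5p in an exon of a noncoding gene (chr4:88910614-88910635, minus strand), and miR-218-5p in introns of Slit2 and Slit3. miR-1298-5p lies in an intron of Htr2c, the serotonin 2C receptor gene (chrX:147064918-147064939, plus strand).

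miRNA counts per library ran from 3077067 to 5997234, with a median of 4930378 in batch 4 and 3937296 in batch 2. Of 1978 miRNA rows, 565 were at 0 in all 12 libraries and 598 had enough counts to test, holding 99.98% of the counts. Levels are given in CPM, the counts of a miRNA per 1e6 counts of its library, after scaling by trimmed mean of M-values (TMM), and fold changes as log2 of batch 4 over batch 2 with their standard error, from edgeR's quasi-likelihood test with Benjamini-Hochberg adjustment over all tested rows. At an adjusted p under 0.05, 331 of the 598 miRNAs differed between the batches (55.4%), 161 higher (26.9%) and 170 lower (28.4%) in batch 4; 348 had an unadjusted p under 0.05 (58.2%). With a log2 change of at least 1 as well, 91 were called (15.2%), 35 higher (5.85%) and 56 lower (9.36%). The batches did not overlap in CPM for 228 miRNAs (38.1%). Across all tested miRNAs the median log2 change was -0.02 and the median absolute change 0.40, so most differences were small beside those of the leading miRNAs. Pearson's r of log2 CPM was 0.986 to 0.996 between libraries of batch 4, 0.993 to 0.996 within batch 2, and 0.962 to 0.976 between them.

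The split into higher and lower depends on the scaling. The TMM factors were 0.843 to 0.981 in batch 4 and 1.126 to 1.212 in batch 2, and scaling by total counts alone shifted the median change of all miRNAs by -0.33, with 61 called higher and 280 lower (17.9% of calls higher, against 48.6%). The changes of the leading miRNAs below are larger than this shift. The 10 leading lower ones and 9 of the 10 leading higher ones kept their direction and call under every scaling, filter, tool and left-out library that tested them; miR-1298-5p is the exception.

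**Figure D1:**
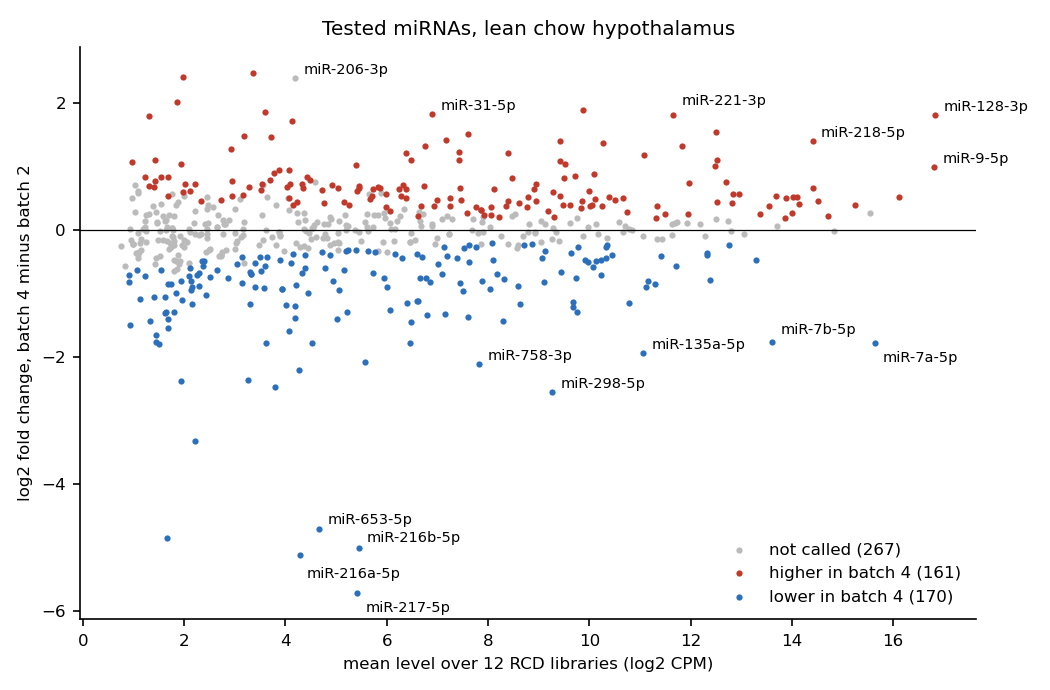
Each point is one of 598 tested miRNAs, placed by its mean level over the 12 libraries (log2 CPM) and its log2 fold change of batch 4 over batch 2; colours mark the calls at adjusted p under 0.05. miR-128-3p and miR-9-5p sit at the right above 0, miR-7a-5p at the right below it, and miR-216a-5p, miR-216b-5p, miR-217-5p and miR-653-5p stand apart at the bottom, below -4, with the unlabelled miR-216a-3p at -4.85.

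Among miRNAs averaging at least 50 CPM, miR-298-5p was the lowest in batch 4. Its CPM in batch 4 ran from 166 to 331 with a median of 237, and in batch 2 the 4 libraries held 1207, 1374, 1470 and 1476. Every library of batch 4 was below every library of batch 2, with a log2 change of -2.55 ± 0.15 (edgeR adjusted p = 1.65e-09). Both arms of miR-296, the neighbour of miR-298 in the imprinted Gnas region, were also lower and were looked at after their values were seen: miR-296-3p averaged 22.96 ± 3.63 CPM (SD, n = 8) against 96.7 ± 6.23 (n = 4), a log2 change of -2.07 ± 0.12, and miR-296-5p changed by -1.77 ± 0.18.

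Among lower miRNAs with these largest folds, the miR-7 strands held the most counts. miR-7a-5p held 20140 to 36120 CPM in batch 4, with a median of 29610, and 90180, 93610, 97450 and 104500 CPM in batch 2. The groups did not overlap, at a log2 change of -1.78 ± 0.13 (edgeR adjusted p = 1.865e-08), and the strand made up 2.59% of the miRNA counts in batch 4 against 11.3% in batch 2. miR-7b-5p, with the same seed, held 5310 to 8316 CPM (median 7161) against 21700, 22740, 24230 and 25430, a log2 change of -1.76 ± 0.13 (edgeR adjusted p = 1.13e-08). The other arms of these hairpins changed less or in the opposite direction. miR-7a-1-3p, which marks the Hnrnpk copy, was higher in batch 4 by 0.50 ± 0.12 on the log2 scale (56.3 against 39.9 CPM, edgeR adjusted p = 0.003424), a call lost under total-count scaling, whereas miR-7a-2-3p, which marks the other copy, was lower by only -0.42 ± 0.11. miR-7b-3p, at 3.16 against 1.78 CPM, changed by 0.77 ± 0.27, a call lost in 6 of the alternatives.

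miR-135a-5p held 852 to 1445 CPM in batch 4 (median 1097) and 4107, 4295, 4532 and 3960 in batch 2, again without overlap (log2 change -1.94 ± 0.12, edgeR adjusted p = 1.851e-09). The opposite arm of its Rmst copy, miR-135a-2-3p, changed by -2.21 ± 0.16. miR-758-3p, from the imprinted Dlk1-Dio3 region, held 86.0 to 122 CPM (median 111) against 462, 409, 491 and 496, a log2 change of -2.11 ± 0.09 (edgeR adjusted p = 7.133e-11). miR-672-5p held 41.1 to 58.1 CPM (median 47.7) against 175, 171, 159 and 159 (log2 change -1.79 ± 0.09). The remaining leading lower miRNAs changed by -1.34 to -1.45: miR-3099-3p averaged 56.2 against 153 CPM, miR-134-5p 201 against 544, miR-760-3p 127 against 329, and miR-1249-3p 73.0 against 185. All 10 had no overlap between the batches.

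Below 50 CPM on average lay a group that was nearly undetected in batch 4; it was singled out after the values were seen. miR-216b-5p held 2.19 to 5.25 CPM in batch 4 (median 4.01) and 118, 126, 128 and 120.3 CPM in batch 2, a log2 change of -5.01 ± 0.14 (edgeR adjusted p = 3.386e-13). miR-217-5p held 0.781 to 3.89 CPM (median 2.18) against 108, 116, 125 and 143, a log2 change of -5.72 ± 0.21, the lowest of all 598. miR-216a-5p held 0.521 to 2.66 CPM (median 1.62) against 57.1, 60.7, 55.8 and 48.9 (log2 change -5.12 ± 0.21). These 3 neighbours on chromosome 11 are best known from the exocrine pancreas, and in the lean libraries of batch 2 they stood at levels that varied little between the 4 libraries. miR-653-5p, of the Calcr intron on chromosome 6, showed the same pattern with 0.984 to 5.43 CPM (median 2.51) against 62.3, 67.9, 70.3 and 84.3 (log2 change -4.71 ± 0.24).

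Of the miRNAs that were higher in batch 4, miR-128-3p carried the most counts. miR-128-3p, a neuronal miRNA known to restrain excitability, held 131000 to 192200 CPM in batch 4 (median 147300) and 53260, 35970, 41880 and 42500 CPM in batch 2. All libraries of batch 2 lay below the batch 4 range (log2 change 1.82 ± 0.12, edgeR adjusted p = 7.13e-09), and its share of the miRNA counts was 14.2% against 5.05%. The passenger arm of its R3hdm1 copy, miR-128-1-5p, showed the largest rise of all tested miRNAs, by 2.48 ± 0.19, at 14.09 against 2.48 CPM; it was named after its value was seen. miR-9-5p, which shapes neural progenitors and neurons, rose by 1.00 ± 0.06 (127900 to 148200 CPM with a median of 139100, against 74220, 63220, 68550 and 70850, edgeR adjusted p = 4.627e-09).

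miR-221-3p and its cluster partner miR-222-3p share the seed GCUACAU, and both rose. miR-221-3p held 3452 to 5053 CPM in batch 4 (median 4280) and 1202, 1152, 1171 and 1298 in batch 2 (log2 change 1.81 ± 0.10, edgeR adjusted p = 1.171e-09). miR-222-3p averaged 4540 ± 582 CPM (SD, n = 8) against 1816 ± 158 (n = 4), a log2 change of 1.32 ± 0.10. miR-31-5p held 114 to 217 CPM (median 158) against 45.6, 40.3, 54.0 and 36.8 (log2 change 1.83 ± 0.18). miR-218-5p, known from motor and other neurons, held 21300 to 36020 CPM (median 25810) against 11950, 9671, 10560 and 9224 (log2 change 1.41 ± 0.14), and miR-139-5p 6190 to 8905 CPM (median 7555) against 3017, 2241, 2624 and 2276 (log2 change 1.54 ± 0.11). None of these overlapped between the batches. The other leading ones rose by 1.37 to 1.51: miR-221-5p averaged 247 against 86.7 CPM, miR-1983 183 against 68.4, miR-708-5p 864 against 328, and miR-138-5p 1553 against 601.

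miR-1298-5p gave the largest fold among the leading higher miRNAs, and 2 libraries set its size. RCD 2 held 4254 CPM and RCD 5 held 2479, while the other 6 libraries of batch 4 held 370 to 641 and batch 2 held 394, 276, 309 and 346. The groups overlapped, and the log2 change of 1.90 ± 0.65 (edgeR adjusted p = 0.02179) became 0.68 (edgeR adjusted p = 0.001203) without RCD 2 and RCD 5. Leaving out RCD 10, RCD 11 or RCD 12 ended the call (edgeR adjusted p = 0.05744, 0.05347 and 0.05097). Its Htr2c neighbour miR-1912-3p followed it, at 5.44 ± 6.04 CPM against 0.938 ± 0.204 (log2 change 2.41 ± 0.83), a call lost without RCD 10 or RCD 12. Another neighbour, miR-1264-3p, changed by 0.21 ± 0.21 (edgeR adjusted p = 0.4259), while the other arm, miR-1264-5p, was called higher by 0.45.

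**Figure D2:**
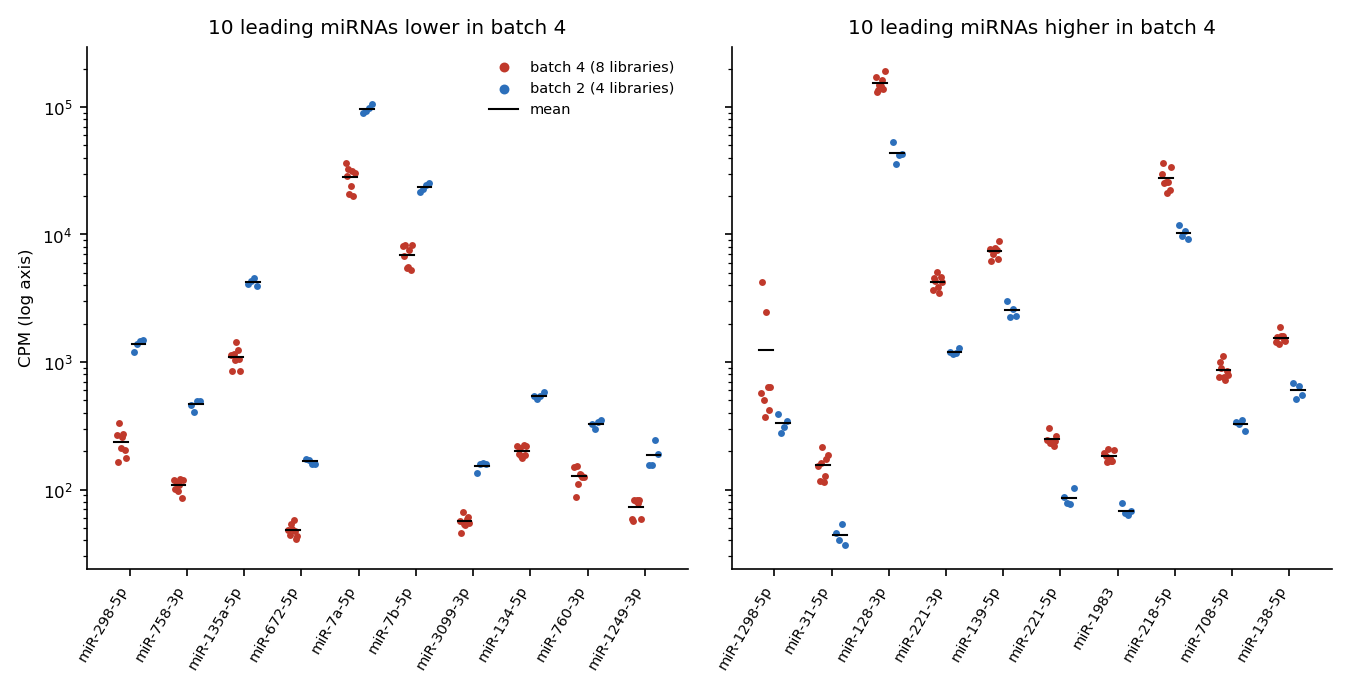
Levels in CPM on a log axis of the 10 leading lower (left) and 10 leading higher (right) miRNAs; each point is a library of batch 4 (8) or batch 2 (4) and each line a mean. The batches separate in every miRNA except miR-1298-5p, where RCD 2 and RCD 5 stand at 4254 and 2479 CPM above the rest.

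Among the 5 miRNAs with the most counts, miR-128-3p, miR-9-5p and miR-26a-5p were higher in batch 4 and miR-7a-5p lower. miR-26a-5p averaged 78900 ± 7902 CPM (SD, n = 8) against 54830 ± 2420 (n = 4), a log2 change of 0.53 ± 0.08. miR-99a-5p changed by 0.27 ± 0.15 (95% interval -0.03 to 0.57, edgeR adjusted p = 0.1464), and passed the test, at 0.34 (edgeR adjusted p = 0.03409), without RCD 2, RCD 5 and RCD 7. Of miRNAs averaging at least 1000 CPM, 5 had the smallest changes: miR-1843a-5p (0.00 ± 0.09), miR-125b-5p (-0.01 ± 0.06), miR-434-5p (-0.02 ± 0.11), miR-146b-5p (0.02 ± 0.08) and miR-136-5p (-0.03 ± 0.08). For miR-125b-5p, at 28990 ± 1008 against 29180 ± 1795 CPM, the 95% interval of -0.12 to 0.10 leaves room for little change on this scaling. Under total-count scaling the same 5 were called lower, by -0.32 to -0.37, about the size of the shift given above.

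Strands of one hairpin usually moved the same way. Both arms were tested for 172 hairpins, and their changes correlated with r = 0.79 across hairpins, which are not independent of each other; the median absolute difference between arms was 0.24. Both arms were called for 64 hairpins, 32 with both higher, 27 with both lower and 5 in opposite directions. The 5 were miR-7b (-1.76 for 5p and 0.77 for 3p), miR-337 (0.82 and -0.72), miR-431 (0.36 and -0.82), miR-299a (0.51 and -0.35) and miR-323 (-0.60 and 0.22). miR-431-5p averaged 68.1 ± 8.80 CPM in batch 4 against 52.9 ± 4.32 in batch 2, and miR-431-3p 91.8 CPM (69.1 to 112) against 162 (151 to 175); the 3p strand exceeded the 5p strand in both batches, by more in batch 2. miR-337-3p stood at only 1.93 against 3.16 CPM, and its call was lost in most of the alternatives. miR-708 rose on both arms by unequal amounts, 1.40 for 5p and 0.50 for 3p. Under total-count scaling miR-708-3p (0.16, edgeR adjusted p = 0.1988) and miR-431-5p (0.03, edgeR adjusted p = 0.8078) lost the call.

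Of 14 seed families with at least 2 called members of 50 CPM or more, 12 were called one way only, and most of the 14 had just 2 called members. The family counts here are to be read beside the 26.9% higher and 28.4% lower over all 598 tested miRNAs. The let-7 guide strands (seed GAGGUAG), which promote differentiation and timing, were higher for 8 of 10 members with a median of 0.40, from 0.20 for let-7e-5p to 0.74 for let-7b-5p (4597 ± 660 against 2747 ± 106 CPM); under total-count scaling 3 were higher and 1 lower, and let-7e-5p turned to -0.14. The other 2 families were called both ways. In the seed GUAAACA, miR-30a-5p (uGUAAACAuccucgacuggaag) rose by 0.57 ± 0.11, from 6008 ± 162 to 8890 ± 1393 CPM, while miR-384-5p (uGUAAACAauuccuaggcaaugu) fell by 0.45 ± 0.09, from 653 ± 70.6 to 479 ± 45.7. In the miR-181 family, miR-181a-5p changed by 0.26 ± 0.08, which turned to -0.07 under total-count scaling, and miR-181c-5p by -0.50 ± 0.11. In the miR-30 list, 7 of 8 strands were higher (median 0.43) and none passed under total-count scaling. In the miR-15/16 family, 5 of 6 were higher (median 0.71, 1 under total-count scaling), led by miR-16-5p at 1.10 ± 0.15 (687 to 1241 CPM, median 755, against 423, 393, 421 and 332). miR-195a-5p rose by 1.11 ± 0.37, with RCD 7 alone at 577 CPM, and by 0.69 without that library (edgeR adjusted p = 0.0005947); the family had 2 calls without RCD 12.

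A list of 47 tested miRNAs was followed from the imprinted Dlk1-Dio3 region, a maternally expressed cluster active in neurons. It may not hold every miRNA of the region, so the lowest and highest below are those of the list and not of the region. Of the list, 13 were higher and 18 lower, with a median of -0.04. Over all tested miRNAs the median was -0.02, with 26.9% higher and 28.4% lower. Within the list miR-758-3p and miR-134-5p were the lowest. The highest in it were miR-409-5p (0.83 ± 0.08, 418 against 236 CPM) and miR-337-5p (0.82 ± 0.06, 849 against 481 CPM). Under total-count scaling 2 of the list were higher and 29 lower. The rodent repeat-derived families encoded in Sfmbt2 had 5 of 18 lower and none higher, with a median of -0.43 (13 lower under total-count scaling); the share lower is close to the 28.4% over all tested miRNAs. miR-669a-5p and miR-669p-5p had identical counts in every library, 11.8 against 22.4 CPM, and were counted as separate rows although their reads cannot be told apart. Of the miR-17/92 list, miR-93-5p was called higher and miR-92a-3p lower (-0.35) of 10, both losing the call in most alternatives, and miR-93-5p turned to -0.05 under total-count scaling.

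The labelled tissue was checked against miRNAs known from cell types. Fewer cells of a type and less RNA per cell cannot be told apart in these bulk libraries, and the list counts are to be read beside the 26.9% higher and 28.4% lower over all 598 tested miRNAs. The neuronal list was present at high levels in all 12 libraries: miR-124-3p, the most neuron-restricted of them, held 5546 to 9056 CPM (median 6095) in batch 4 and 3300, 3295, 3711 and 3249 in batch 2, a log2 change of 1.01 ± 0.14. In this list 8 of 18 were higher (miR-124-3p, miR-124-5p at 1.33, miR-128-3p, miR-9-5p, miR-9-3p, miR-137-3p at 0.85, miR-138-5p and miR-218-5p) and 5 lower (miR-149-5p at -0.70, miR-383-5p, miR-384-5p, miR-384-3p and miR-873a-5p). The median was 0.24, and -0.09 under total-count scaling, where 7 were higher and 8 lower. The markers set for hypothalamic and neuroendocrine neurons were all lower in batch 4. They were miR-7a-5p (-1.78), miR-7b-5p (-1.76), miR-383-5p (-0.44) and miR-384-5p (-0.45), and the last pair is also in the neuronal list. The miR-132 and miR-212 cluster, induced by neuronal activity through CREB and the target of the oligonucleotide given to other mice of the series, was higher for 4 of 4 strands (median 0.73, 2 of them under total-count scaling). miR-132-3p held 942 to 1667 CPM (median 1223) against 711, 670, 771 and 656, a log2 change of 0.89 ± 0.14 (edgeR adjusted p = 6.334e-05), and miR-132-5p rose by 1.18 ± 0.11.

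Oligodendrocyte miRNAs moved the other way. miR-219a-2-3p, which drives myelinating glia to mature, held 416 to 820.0 CPM in batch 4 (median 559.0) and 1456, 1420, 1424 and 1382 in batch 2, a log2 change of -1.29 ± 0.15. With miR-219a-5p (-1.20 ± 0.16), miR-338-3p (-0.78 ± 0.10) and miR-338-5p (-0.67), 4 of 5 list members were lower, and miR-23a-3p was higher by 0.46 (0 higher and 4 lower under total-count scaling). Summed over the list, batch 4 held 1486 to 2276 CPM and batch 2 held 2967 to 3151. Of 4 astrocyte miRNAs, 2 were higher, miR-29a-3p (0.46 ± 0.06, 25690 against 18660 CPM) and miR-31-5p, with a list median of 0.28; under total-count scaling 1 was higher and 2 lower, the median was -0.06 and miR-29a-3p lost the call (0.13, edgeR adjusted p = 0.103). Of 7 microglial and leukocyte miRNAs, 5 were higher and miR-21a-5p lower (-0.36 ± 0.09); total-count scaling called 0 higher and 2 lower. miR-223-3p, the most myeloid of them, stood at only 1.64 to 4.22 against 1.00 to 1.97 CPM. The fit over 44 libraries ended the calls of miR-21a-5p, miR-142a-3p and miR-223-3p (edgeR adjusted p = 0.07762, 0.116 and 0.06548). Summed over these 7 miRNAs, batch 4 held 5764 to 8215 CPM (median 6612) and batch 2 held 6989 to 8045 (median 7687), with overlap. Of 7 endothelial and mural miRNAs, miR-126a-3p (0.53 ± 0.10, 18480 ± 1496 against 12810 ± 2211 CPM) and miR-126a-5p were higher, a share close to the 26.9% over all tested miRNAs; without RCD 9 4 were, and under total-count scaling none was higher and 1 was lower.

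Markers of blood, pituitary, muscle and other tissues were examined in the same way. Of 5 red cell miRNAs, edgeR called 0, DESeq2 called 0 and 0 had an unadjusted p under 0.05; under total-count scaling edgeR called 1 lower, miR-486a-5p (-0.39, adjusted p = 0.0492). miR-451a stood at 436 ± 80.4 against 446 ± 136 CPM. In the pituitary and epithelial list, 5 of 9 were lower (median -0.42), among them miR-375-3p (49.8 ± 18.8 against 92.8 ± 1.33 CPM, log2 change -0.90 ± 0.20), miR-200c-3p (9.91 ± 6.92 against 30.7 ± 16.7) and miR-141-3p (1.43 against 5.34). In the fit over 44 libraries these 3 lost the call (edgeR adjusted p = 0.4737, 0.328 and 0.3708), and the list median was -0.20 without RCD 7 and -0.09 without RCD 2, RCD 5 and RCD 7. The summed list overlapped between the batches, at 346 to 644 and 389 to 634 CPM, and its highest change was 0.51. The pituitary markers miR-200a-3p (0.34 ± 0.45) and miR-200b-3p (-0.02 ± 0.44) were not called (edgeR adjusted p = 0.556 and 0.9771). In the muscle list, miR-499-5p (-1.25 ± 0.09), miR-1a-3p (-0.80 ± 0.17) and miR-133a-3p (-0.51 ± 0.21, a call lost in most alternatives) were lower of 4. The fit over 44 libraries ended the call of miR-1a-3p (edgeR adjusted p = 0.09707). miR-206-3p stood at 147 CPM in RCD 7 and at 3.98 to 10.09 in the other 11 libraries, and its log2 change of 2.40 ± 1.03 (edgeR adjusted p = 0.05928) was 0.64 (edgeR adjusted p = 0.04234) without RCD 7. Of the Hox-linked miRNAs, miR-10a-5p was lower (-0.75 ± 0.12) and miR-10b-5p changed by 0.07 ± 0.27. Liver-typical miR-122-5p was lower at 30.1 ± 6.71 against 46.2 ± 12.05 CPM, a call lost without RCD 12. Of the 3 miRNAs of the miR-183 cluster, edgeR called 0, DESeq2 called 0 and 0 had an unadjusted p under 0.05, at changes of 0.57 to 0.71.

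**Figure D3:**
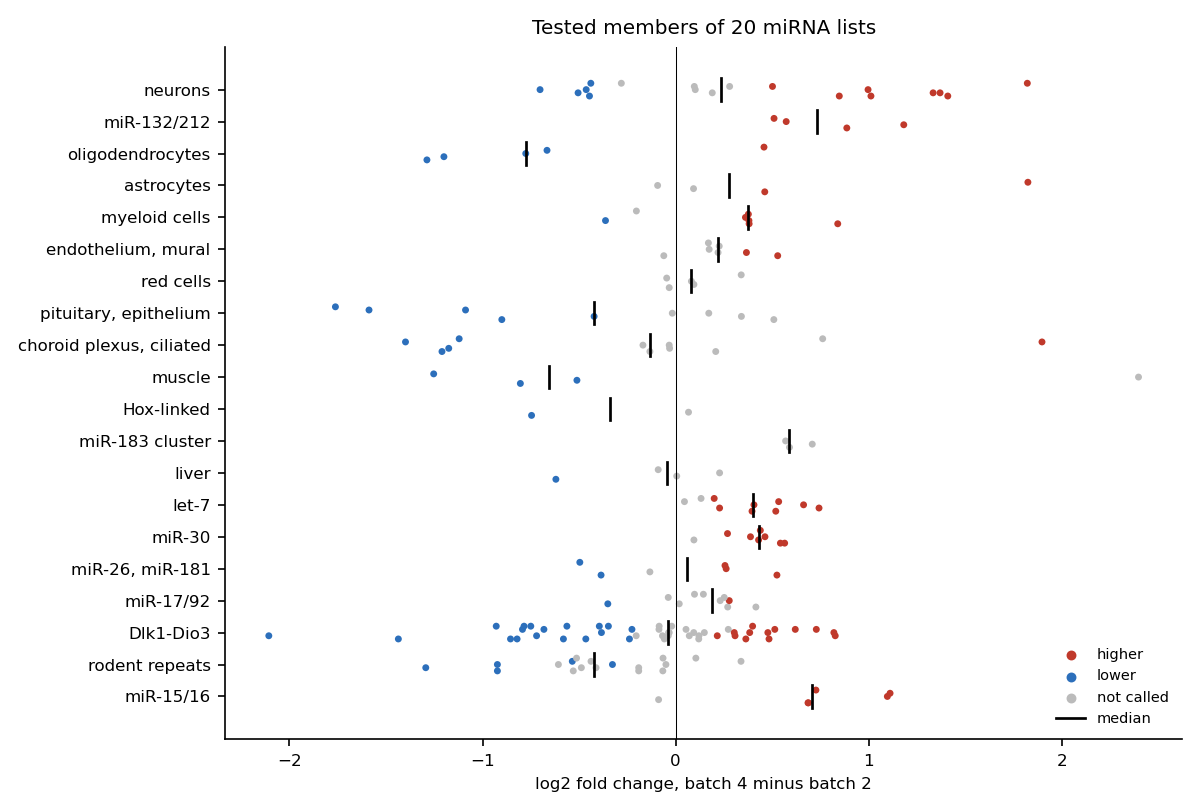
Log2 fold change of batch 4 over batch 2 for the tested members of 20 miRNA lists, with calls in colour and a line at each list's median (TMM scaling). The 4 lower oligodendrocyte miRNAs lie between -0.67 and -1.29, the miR-30, let-7, miR-15/16, miR-132 and miR-212 lists lie mostly above 0 with medians of 0.40 to 0.73, and the neuronal and Dlk1-Dio3 lists spread to both sides; under total-count scaling every list shifts down by about 0.33 and the neuronal, astrocyte, endothelial, red cell, miR-26 and miR-181 and miR-17/92 medians fall below 0.

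The choroid plexus and ciliated-cell list split the libraries of batch 4. Its summed level was 13580 CPM in RCD 2 and 7800 CPM in RCD 5, 2436 to 3444 CPM in the other 6 libraries, and 4847 to 5526 CPM in batch 2. Over all libraries 4 of 11 members were lower and 1 higher (median -0.13), and without RCD 2 and RCD 5, a choice made after seeing the data, 7 were lower and 1 higher (median -0.60). miR-204-5p, abundant in choroid plexus, held 6698 CPM in RCD 2, 3922 in RCD 5, 1434 to 2539 in the rest of batch 4 and 2857, 2694, 3288 and 2971 in batch 2; its log2 change was -0.13 ± 0.35 (edgeR adjusted p = 0.7787) and -0.68 (edgeR adjusted p = 0.0002045) without that pair. miR-34c-5p, of motile ciliated cells such as ependyma, held 1693 CPM in RCD 2, 810 in RCD 5 and 232 to 413 in the others, against 1182, 1364, 1374 and 1357. It was lower by -1.21 over all libraries and by -1.92 without the pair, and the other miR-34b/c strands fell with it (-1.12 to -1.40). miR-448-3p is another intronic miRNA of Htr2c. It held 100.2 CPM in RCD 2, 58.6 in RCD 5 and 7.43 to 13.5 in the others, against 15.0 to 17.5. Its change of 0.76 ± 0.66, not called, turned to -0.60 without the pair. The other arm of the hairpin, miR-448-5p, was called lower over all libraries, at a log2 change of -0.91. Whether the amount of ventricle lining in the dissected tissue accounts for the levels in RCD 2 and RCD 5 was not tested.

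Base composition was compared for the 509 tested miRNAs with a RefSeq sequence, as a description. Split into 4 classes of about equal size by GC content, the class richest in G and C (57.1 to 81.8% GC) had a median log2 change of -0.25, with 18.1% called higher and 41.7% lower, whereas the other classes had medians of 0.06 to 0.09. Over all 509, 27.9% were called higher and 28.3% lower. Across miRNAs, which are not independent, GC content and change correlated weakly (r = -0.078, rho = -0.141). Among the 236 with at least 50 CPM the richest class again had the lowest median, -0.24, with 28.8% higher and 54.2% lower. Over all 236 the shares were 40.3% higher and 28.4% lower. By first base among the 509, miRNAs that begin with C had the highest median (0.13, 36.2% higher and 18.1% lower).

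The obese arms offered the same kind of comparison in libraries that the lean contrast did not use: batch 1 and batch 3 against batch 2, within AM608 and within AM132, in a fit over all 44 libraries. Within an arm the contrasts of batch 1 and batch 3 share the libraries of batch 2. Of 624 tested miRNAs, 335 (53.7%), 343 (55.0%), 316 (50.6%) and 324 (51.9%) were called in AM608 batch 1, AM608 batch 3, AM132 batch 1 and AM132 batch 3. Across the 598 miRNAs tested in both fits, their changes correlated with the lean change at r = 0.803 to 0.831. Of the 331 miRNAs called in the lean libraries, 317 to 324 had the same sign, and 256 to 265 were called the same way, which is 77.3 to 80.1% of the lean calls and 77.2 to 84.4% of the calls of the other contrast. All 10 leading lower miRNAs were called lower in each of the 4 contrasts, and 9 of the 10 leading higher ones were called higher; miR-1298-5p, at 0.08 to 0.34, was not.

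The levels show that batch 2 differed from each of the others in these miRNAs, whatever the arm. miR-128-3p had a mean log2 CPM of 17.23 ± 0.19 (SD, n = 8) in lean batch 4 and 17.27 to 17.56 in the obese groups of batches 1 and 3, but 15.39 ± 0.24 (n = 4) in lean batch 2 and 15.41 in both obese groups of batch 2. miR-216b-5p stood at 2.10 ± 0.33 in lean batch 4, 1.71 to 2.03 in the obese groups of batches 1 and 3, 6.95 ± 0.05 in lean batch 2, and 6.99 and 7.27 in the obese groups of batch 2. miR-7a-5p was 14.76 ± 0.31 in lean batch 4, 14.94 to 15.36 in batches 1 and 3, and 16.55 to 16.64 in the 3 groups of batch 2. The changes of miR-298-5p (-2.16 to -2.59), miR-217-5p (-5.54 to -6.58), miR-653-5p (-4.29 to -4.47), miR-9-5p (1.03 to 1.10) and miR-219a-2-3p (-1.31 to -1.91) in the obese arms were close in size to those in the lean libraries. By contrast, miR-1912-3p changed by -0.69 to 0.48 there, with no call.

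A direct test of the lean difference against the AM608 difference called 13 of 624 miRNAs (2.08%) for batch 1 and 11 (1.76%) for batch 3. All 4 strands of miR-34b and miR-34c passed in both. miR-34c-5p changed by -3.06 to -3.52 in the obese arms, and the lean change was smaller by 2.15 ± 0.44 (edgeR adjusted p = 0.005368) and 2.32 ± 0.44 (edgeR adjusted p = 0.00169) on the log2 scale. Its lean mean in batch 4 was 8.86 ± 0.92 log2 CPM, with RCD 2 and RCD 5 highest, against 6.71 to 7.24 in the obese groups of batches 1 and 3 and 10.24 to 10.36 in batch 2. Diet, injection and batch differ together in these differences and cannot be told apart.

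**Figure D4:**
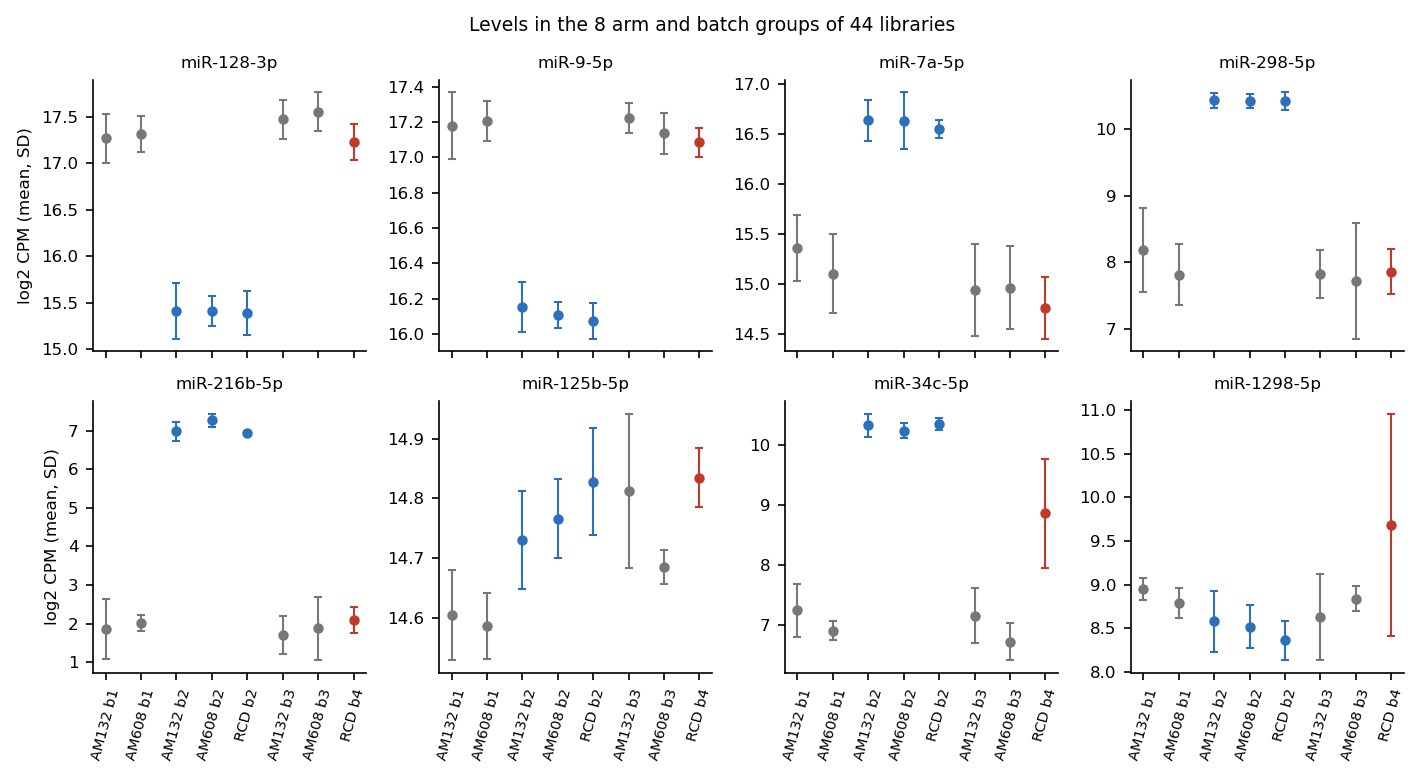
Mean log2 CPM with SD of 8 miRNAs in the 8 groups of the series (4 or 8 libraries each): AM132 and AM608 are the obese arms, RCD the lean one, b1 to b4 the batches, with batch 2 in blue and lean batch 4 in red. For miR-128-3p, miR-9-5p, miR-7a-5p, miR-298-5p and miR-216b-5p the 3 groups of batch 2 lie on one side and all others on the other side; miR-125b-5p spans only 14.59 to 14.84, and miR-1298-5p is spread widely in lean batch 4 alone.

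tRNA fragments were counted far less deeply, at 38619 to 160383 per library with medians of 63378 in batch 4 and 110107 in batch 2. Of 17051 tRF rows, 7134 were at 0 in the 12 libraries and 510 could be tested, holding 93.08% of the counts. In batch 4 against batch 2, edgeR called 50 (9.8%), 23 higher (4.51%) and 27 lower (5.29%), with 25.9% at an unadjusted p under 0.05 and 34 without overlap (6.67%). With a log2 change of at least 1 as well, 44 were called (8.63%), 18 higher (3.53%) and 26 lower (5.1%). Libraries of the same batch were less alike than for miRNAs, with r of 0.612 to 0.957 within batch 4, 0.325 to 0.946 within batch 2 and 0.451 to 0.900 between them. The number of calls moved with the method, from 28 without RCD 12 to 76 without RCD 1 and 93 by DESeq2, and total-count scaling shifted the median by 0.44 and gave 19 higher and 7 lower. CPM of tRFs is within the tRF table and cannot be set against that of miRNAs. The tRNA names below are as listed with the counts. That listing includes chromosomes that the mouse lacks, so it may not be a mouse one.

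The clearest tRF difference lay in a nested set of glutamine tRNA fragments. The deposited sequences are shown 5′ to 3′ in DNA letters, with the 19 bases that all of them hold in capitals; the number after the name is the length of the fragment:
tRF-19-DRFU8U25: AATCCAGCGATCCGAGTTC
tRF-20-DRFU8U76: AATCCAGCGATCCGAGTTCa
tRF-23-DRFU8U767: AATCCAGCGATCCGAGTTCaaat
tRF-25-DRFU8U76D7: AATCCAGCGATCCGAGTTCaaatct
tRF-22-NB8PLML35: ctgAATCCAGCGATCCGAGTTC
tRF-23-WUH6QE3005: tctgAATCCAGCGATCCGAGTTC
The first 4, with 3 more of 21, 22 and 24 bases, begin at tRNA position 37, the base after the anticodon, and are listed under tRNAs for glutamine with the anticodons CTG and TTG. All 7 were lower in batch 4 without overlap, by -1.71 to -2.15. Under total-count scaling tRF-25-DRFU8U76D7 lost the call (-1.30, edgeR adjusted p = 0.05056). Nested fragments may come from the same tRNA molecules and are not independent. tRF-23-DRFU8U767 held 737 to 1250 CPM in batch 4 (median 962) and 4008, 5048, 3776 and 4086 in batch 2, a log2 change of -2.06 ± 0.20 (edgeR adjusted p = 4.336e-05). tRF-19-DRFU8U25 held 336 to 711 CPM (median 548) against 2245, 2960, 2181 and 2316 (log2 change -2.15 ± 0.21).

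Fragments that hold the same 19 bases but begin upstream of them in the anticodon loop gave other values. tRF-22-NB8PLML35, from position 34, changed by -0.77 ± 0.28 (edgeR adjusted p = 0.1144), at 154 ± 43.5 against 271 ± 96.0 CPM, and DESeq2 called it lower (-0.81, adjusted p = 0.03413). tRF-23-WUH6QE3005, from position 33, was higher by 1.23 ± 0.36 (edgeR adjusted p = 0.04651), at 213 to 599 CPM against 63.0, 257, 173 and 144, a call lost in 8 alternatives. tRF-21-NB8PLML3E, which begins at position 34 and ends 1 base before the shared stretch does, was higher by 1.52 ± 0.34 (edgeR adjusted p = 0.01496), a call lost in 4 alternatives. In the obese arms tRF-23-DRFU8U767 changed by -2.06 to -2.97 against batch 2 (largest edgeR adjusted p = 1.755e-06 of the 4 contrasts), and the other 6 fragments from position 37 by -1.83 to -3.14.

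Of the other lower fragments above 200 CPM, 2 lysine i-tRFs gave the largest changes and rested on 2 libraries of batch 2. tRF-31-6XQ6S8V0JUO9E (LysCTT) held 82.1 to 342 CPM in batch 4 and 147, 119.8, 3209 and 1266 in RCD 9 to RCD 12, a log2 change of -2.47 ± 0.69 (edgeR adjusted p = 0.03813) that became -1.29 (edgeR adjusted p = 0.2628) without RCD 11. tRF-29-MEF91SS2PMER (LysTTT) held 116 to 278 CPM against 126, 103, 2104 and 986, and its change of -2.33 ± 0.61 became -1.34 (edgeR adjusted p = 0.1839) without RCD 11. RCD 9 and RCD 10 lay within the batch 4 range for the first, and for the second RCD 9 lay within it and RCD 10 below it. The calls were lost in 12 alternatives for the first, among them total-count scaling and leaving out any of RCD 2 to RCD 8, RCD 11 or RCD 12, and in 10 for the second.

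The other higher fragments named here are listed under valine, glutamate, tyrosine, alanine and suppressor tRNAs. A pair of valine AAC fragments begins 1 base apart at the start of the tRNA and is shown because the first had the smallest p of the higher tRFs named:
tRF-23-79MP9P9MDD: gtttccgtagtgtagtggtcatc
tRF-22-ZRS3S3R65: tttccgtagtgtagtggtcatc
tRF-23-79MP9P9MDD held 312 to 736 CPM in batch 4 (median 550.4) and 168, 103, 135 and 200.3 in batch 2, without overlap (log2 change 1.81 ± 0.31, edgeR adjusted p = 0.003067). It was the only one of the 8 leading higher tRFs to keep its call in every alternative that tested it, and it changed by 1.43 to 2.16 in the 4 obese contrasts (largest edgeR adjusted p = 0.0003406). tRF-22-ZRS3S3R65 rose by 1.64 ± 0.37 (306 ± 119 against 97.7 ± 26.3 CPM). tRF-24-MN1E8Y7ZFV (GluTTC) rose by 1.49 ± 0.28, from 280.1 ± 99.3 to 785 ± 178 CPM, and tRF-25-MN1E8Y7Z2R, which is 1 base longer, by 1.27 ± 0.36. tRF-18-HSQSD2D2 (TyrGTA) rose by 1.46 ± 0.27, tRF-17-8R6546J (AlaAGC or AlaTGC) by 1.41 ± 0.28 and tRF-23-Y2PPEVNK0Q, listed under a suppressor tRNA with the anticodon TTA, by 1.41 ± 0.29 (2013 ± 458 against 761 ± 265 CPM). In the test of the lean against the AM608 difference, 6 of 808 tRFs (0.743%) passed for batch 1 and 163 (20.2%) for batch 3. The changes in the 4 obese contrasts correlated with the lean ones at r = -0.052 to 0.339 across the 510 tRFs tested in both, and 40 to 48 of the 50 lean calls had the same sign.

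The tRFs with the most counts did not pass the test. tRF-50-PSQP4PW3FJIKE7UMKKSW (LysCTT) held 116 CPM in RCD 7 and 44730 to 392900 CPM in the other 11 libraries, and its change was -0.64 ± 1.06 (edgeR adjusted p = 0.7237). The glutamate CTC 5' fragment tRF-33-87R8WP9N1EWJDW held 26680 to 98650 CPM (median 51370) against 54370, 98520, 47610 and 46360 (-0.21 ± 0.40). The spread within each batch was larger than the difference between them in both. By class, 7 of 69 3'-tRFs were higher and 1 lower (median 0.41), and 12 of 267 i-tRFs were higher and 22 lower (median -0.28). Of 109 5'-tRFs, 3 were higher and 4 lower (median 0.08). Among 48 5' fragments cut in the anticodon loop, 1 was higher and 0 lower. The median over all tested tRFs was -0.08. By amino acid, valine had 6 higher and 1 lower of 21, alanine 4 higher and 0 lower of 17, lysine 0 higher and 4 lower of 106, and glutamine 2 higher and 7 lower of 19. These class and amino acid counts are to be read beside the 4.51% higher and 5.29% lower over all 510 tested tRFs. The shares of i-tRFs higher and of 5'-tRFs and lysine tRFs lower are near those values.

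**Figure D5:**
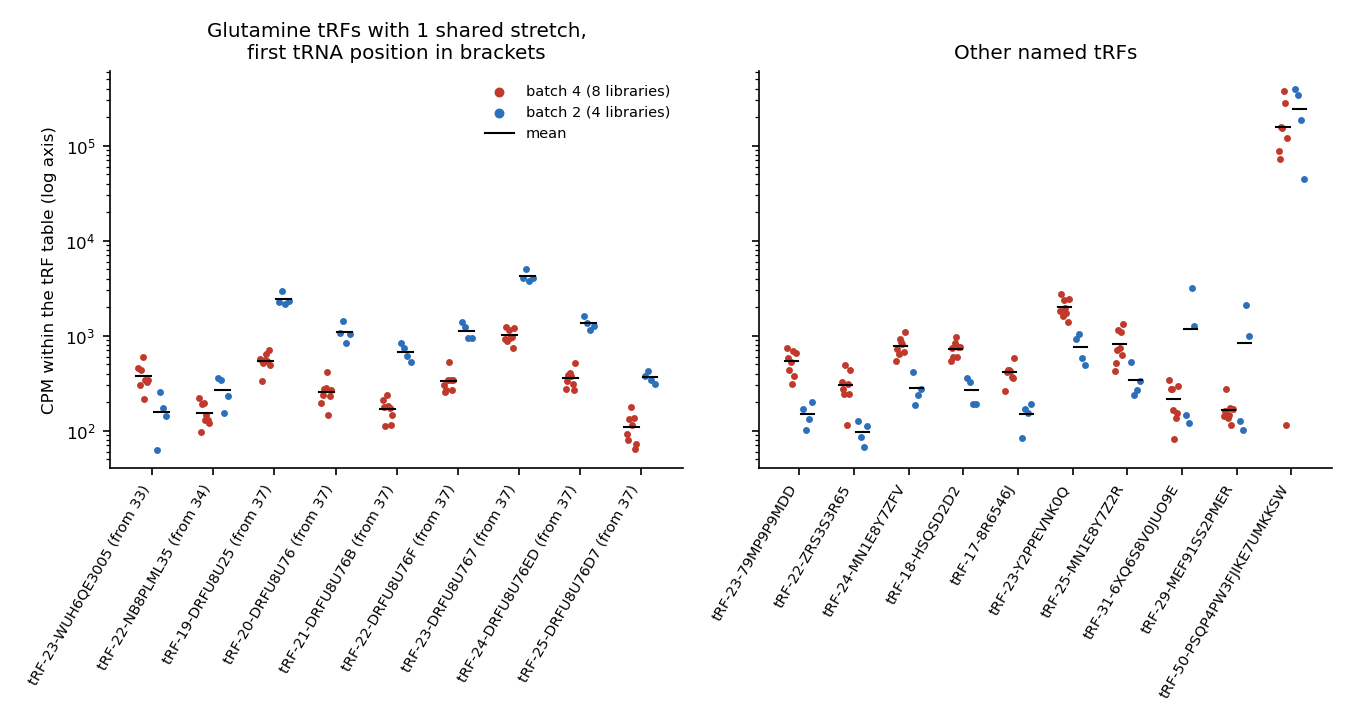
Levels in CPM within the tRF table (log axis) of 9 glutamine tRFs that hold the same 19 bases (left, with the first tRNA position in brackets) and 10 other named tRFs (right); points are libraries of batch 4 (8) or batch 2 (4), lines are means. The 7 fragments from position 37 separate the batches while those from 33 and 34 overlap, and tRF-50-PSQP4PW3FJIKE7UMKKSW stands at 116 CPM in one library of batch 4.

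Shares of the tRF counts by class and amino acid were compared by an exact permutation test, two-sided, over every way to draw 4 of the 12 libraries, where the smallest p is 0.00404. None of 18 shares passed after adjustment, and 4 had an unadjusted p under 0.05: 3'-tRFs made up 8.55% ± 2.59 (SD, n = 8) of the counts in batch 4 and 4.89% ± 1.00 (n = 4) in batch 2 (exact permutation p = 0.01212, adjusted 0.07273), and glycine, alanine and valine tRFs also had higher shares (7.96% ± 2.02 against 5.48% ± 0.29 for glycine). Without RCD 1, 4 shares passed. For each 100 miRNA counts there were 1.49 ± 0.50 tRF counts in batch 4 (0.94 to 2.36, median 1.49) and 1.98, 1.96, 3.69 and 2.52 in batch 2, a difference of -1.05 (exact permutation p = 0.02828, two-sided). The ranges overlapped, and without RCD 11 the difference was -0.66 and without RCD 12 -1.05, both with an exact permutation p of 0.08485.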

How the data were processed

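Small RNA was measured in 12 lean (RCD) hypothalamus libraries, 8 of batch 4 and 4 of batch 2. The values are raw counts per miRNA and per tRF, as the authors deposited them. Per the labels' protocols, RNA was extracted with miRNeasy and libraries made with the NEBNext small RNA kit for a NextSeq 500; the submitters' processing notes name FastQC. The aligner, the annotation and the genome build are not given in the sources used here. Listed tRF locations include chromosomes that the mouse lacks (421 of 17051 rows), so tRF coordinates were not used and tRNA names are as listed. The species that the listing was made for is not given, and this limit holds for the names of all rows.

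Counts were tested with edgeR 4.0.16 (TMM, filterByExpr with a minimum count of 10 and a total of 15, quasi-likelihood, Benjamini-Hochberg at 0.05) over the 12 libraries; log2 CPM used a prior count of 2. R was 4.3.3, and limma 3.58.1, DESeq2 1.42.0, Python 3.11.15 and scipy 1.17.1 were used. With no blocking term, the fit held the batch alone. At 4570632 miRNA counts and 66681 tRF counts (medians), simulated log2 changes of 1 were recovered for 94% of 67 miRNAs (of 598 rows, 7 false calls among 398 unchanged) and 14.9% of 67 tRFs (of 510 rows, 0 false calls among 310). The closest pair of libraries differed by 15.6 times sampling noise for miRNAs and 7.89 times for tRFs (chi-square per degree of freedom), so none was counted as a duplicate. Of the tested miRNAs, 15 had counts identical to another. Gene positions are from GENCODE vM21 and miRNA sequences from RefSeq on GRCm38.

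Named miRNAs were the 10 with the largest change in each direction among those called with a mean of at least 50 CPM, the 5 with most counts, the 5 with the smallest change above 1000 CPM, the 2 with the smallest p of each of 20 lists, cell type markers, and arms or seed family members that differed most. Named tRFs were the 8 with the largest change in each direction at 200 CPM or more, the 5 with most counts, and the 5 with the smallest change above 2000 CPM. Members and lists were chosen with earlier results of these data known. Alternatives were other scalings and filters, a fold threshold, a fit over 44 libraries, DESeq2, each library left out, and, chosen after seeing the data, RCD 2 and RCD 5, or these with RCD 7, left out.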

Additional observations from a re-analysis of the deposited data

Results flagged for a closer look

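In each batch, the highest and lowest library of every named miRNA, tRF and share was compared with its nearest neighbour by Dixon's gap; chance marks about 1 in 20 groups, and 17 values in 328 groups stood apart. All are log2 CPM. For RCD 2, miR-375-3p stood at 6.58 (nearest 5.76) and miR-92a-3p at 4.16 (4.55). RCD 5 had miR-143-3p at 13.3 (12.7), its cluster partner miR-145a-5p at 7.85 (7.4) and tRF-22-DRFU8U76F at 9.11 (8.54). RCD 7 had miR-206-3p at 7.21 (3.4), miR-194-5p at 9.36 (8.46), miR-195a-5p at 9.17 (7.75) and tRF-50-PSQP4PW3FJIKE7UMKKSW at 7.16, below the other 7 of its batch. RCD 1 had tRF-33-PS5P4PW3FJHPW at 12.6 (11.4) and tRF-34-87R8WP9N1EWJI5 at 15.6 (14.3). RCD 3 had tRF-29-MEF91SS2PMER at 8.25 (7.64), and RCD 4 had miR-137-3p at 10.4 (9.99). In batch 2, RCD 9 had miR-126a-3p at 14.0 (13.6), miR-34c-5p at 10.2 (10.4) and tRF-34-87R8WP9N1EWJI5 at 14.0 (14.5), and RCD 11 had miR-124-3p at 11.9 (11.7).

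The second set are named miRNAs and tRFs whose lean difference (batch 4 against batch 2) differed from the difference within AM608 in edgeR's 44-library fit, on the log2 scale; 23 passed, and diet, injection and batch cannot be told apart in them. Against AM608 batch 1 the lean value was above by 2.427 for miR-34b-3p, 2.153 for miR-34c-5p, 1.957 for miR-34b-5p, 1.777 for miR-34c-3p and 1.3 for tRF-24-MN1E8Y7ZFV, and was -3.827 away for tRF-31-6XQ6S8V0JUO9E. Against AM608 batch 3 the miR-34 strands were above by 2.574 (miR-34b-3p), 2.523 (miR-34b-5p), 2.324 (miR-34c-5p) and 2.121 (miR-34c-3p). The lysine i-tRFs differed by -4.905 (tRF-31-6XQ6S8V0JUO9E) and -4.465 (tRF-29-MEF91SS2PMER), having been higher, not lower, in AM608 batch 3. Lean values were also above for the long lysine fragment tRF-50-PSQP4PW3FJIKE7UMKKSW (8.076), tRF-23-WUH6QE3005 (1.957), tRF-23-Y2PPEVNK0Q (1.712), tRF-16-RPM830D (1.693), tRF-22-ZRS3S3R65 (1.45), tRF-17-8R6546J (1.32), tRF-24-MN1E8Y7ZFV (1.203) and tRF-33-86J8WPMN1E8Y0E (1.088). For 3 of the glutamine fragments from position 37 the lean fall was the smaller one, by 1.307 (tRF-21-DRFU8U76B), 1.206 (tRF-20-DRFU8U76) and 1.134 (tRF-22-DRFU8U76F).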

How the results depend on the processing

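The 331 miRNA calls ranged from 296 to 332 with each library left out, and were 332 with RLE scaling, 341 with total counts (231 shared), 319 with DESeq2, and 91 with a log2 change of at least 1. The 50 tRF calls ranged from 28 (without RCD 12) to 76 (without RCD 1), with 33 without RCD 7, and were 26 with total-count scaling, 109 with no low-count filter (22 shared), 114 in the 44-library fit and 93 with DESeq2, which kept all 50. Shares passing ranged from 0 to 4, and the tRF to miRNA difference from -1.24 to -0.663 with a library left out; it was -0.844 without the most abundant feature of each table (exact permutation p = 0.101). Total-count scaling turned miR-1843a-5p to -0.335, miR-146b-5p to -0.315, miR-93-5p to -0.052, miR-181a-5p to -0.072 and let-7e-5p to -0.135. That scaling leaves out the TMM factors. In these libraries it moved the median change by -0.33 for miRNAs and by 0.44 for tRFs. miR-448-3p turned to -0.596 without RCD 2 and RCD 5 and to -0.552 without RCD 7 as well. Over all named miRNAs, tRFs and tRF shares, 3100 values under an alternative kept their side of the threshold, with the same direction where called. Of the rest, 151 lost the call, 23 gained it and 7 reversed. The causes of these changes were not tested. The depth of the tRF table limits it: most simulated tRF changes of 1 on the log2 scale were missed. No paired analysis was possible because the lean libraries of batch 4 carry the numbers 1 to 8 and those of batch 2 the numbers 9 to 12, so no number is shared.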
